A study of Mus musculus with 9 samples.

Results

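The interferon-stimulated genes are the genes that cells switch on when they sense interferon, and 41 of them were followed across whole mouse knee joints. Members were chosen by name, as the gene IDs in the count tables that the GRCm38 annotation maps to the 41 symbols, and all 41 were found among 53379 gene IDs. All 41 also had enough counts to be tested, among 17478 genes in all. RNA sequencing covered 9 libraries in 3 groups of 3. In the Luc and PC2 groups the anterior cruciate ligament of male C57BL/6 mice was cut at 8 weeks of age (ACLT, a surgical model of osteoarthritis), a lentivirus was injected into the joint cavity 1 week later, and joints were taken 8 weeks after the injection. The virus expressed Luc, the control, in the Luc group and PC2 in the PC2 group. The Non surgery group had no operation, and the sources used here do not give its strain, sex or age or say whether it received any virus.

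RNA of all mice of a group was mixed, and the 3 libraries of a group were technical repeats of that mixture. Every p-value below therefore measures technical spread only and carries no difference between mice. Operation, virus and RNA mixture cannot be told apart in a comparison with Non surgery, and virus and RNA mixture cannot be told apart between PC2 and Luc. The series title names nucleolar homeostasis, senescence and osteoarthritis as the subject of PC2.

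Type I and type III interferons signal through their receptors and the kinases JAK1 and TYK2 to STAT proteins, among them STAT2, which join IRF9 in a complex that binds interferon-stimulated response elements in DNA. Interferon-gamma, the type II interferon, signals through JAK1 and JAK2. The induced genes encode sensors of foreign nucleic acid, proteins that degrade RNA or stop its translation, GTPases that attack pathogen vacuoles, and regulators that extend or end the response. In joints, interferon-stimulated genes are best known from the synovium in inflammatory arthritis.

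The upstream sequences of 5 members are shown. Each holds the core of an interferon-stimulated response element, and each of these genes fell in PC2 against Luc. Gbp2 aside, they were taken for the largest changes in that comparison among members found with this core, so they do not stand for the rest. The motif searched was GAAA, any 2 bases and GAAA again, on both strands, with overlapping matches allowed. Capitals mark the matches, and each sequence runs 5′ to 3′ on the strand of its gene, ending before the annotated start of transcription. Sequences are from RefSeq, build GRCm38.p6. Each is 160 bases long, and the matches lie close to the start in Gbp3, Igtp and Oas1a and farther upstream in Ifit1 and Ifit3.
Gbp3: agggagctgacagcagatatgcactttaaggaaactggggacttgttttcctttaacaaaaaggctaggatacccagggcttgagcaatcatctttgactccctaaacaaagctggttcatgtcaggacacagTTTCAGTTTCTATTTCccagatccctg
Igtp: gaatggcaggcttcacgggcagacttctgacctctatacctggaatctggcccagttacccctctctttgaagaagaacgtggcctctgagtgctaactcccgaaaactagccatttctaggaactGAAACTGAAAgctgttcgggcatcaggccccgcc
Oas1a: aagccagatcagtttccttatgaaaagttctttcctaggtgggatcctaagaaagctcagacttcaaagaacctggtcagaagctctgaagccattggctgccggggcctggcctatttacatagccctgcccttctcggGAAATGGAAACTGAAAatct
Ifit1: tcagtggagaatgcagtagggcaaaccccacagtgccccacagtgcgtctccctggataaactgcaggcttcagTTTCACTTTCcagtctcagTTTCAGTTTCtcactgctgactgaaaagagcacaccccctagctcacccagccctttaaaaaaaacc
Ifit3: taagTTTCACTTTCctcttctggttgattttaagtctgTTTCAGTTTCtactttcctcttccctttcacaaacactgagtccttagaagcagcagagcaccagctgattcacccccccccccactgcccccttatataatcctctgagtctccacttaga

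These sequences lie at chr3:142559866-142560025 (Gbp3, plus strand), chr11:58199396-58199555 (Igtp, plus strand), chr5:120907526-120907685 (Oas1a, minus strand), chr19:34640711-34640870 (Ifit1, plus strand) and chr19:34583369-34583528 (Ifit3, plus strand). In Ifit1 and Ifit3 the matches are GAAAGTGAAA and GAAACTGAAA, both read on the strand opposite to the gene. Oas1a holds the overlapping matches GAAATGGAAA and GAAACTGAAA, the nearest of them at positions -14 to -5 from the RefSeq start. Gbp3 likewise holds 2 overlapping matches, GAAACTGAAA and GAAATAGAAA. In Gbp2 a match lies inside the gene as GENCODE draws it, and its sequence is not printed.

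RefSeq windows from 250 bases before to 50 bases after a start were on hand for 31 members, in 35 windows. The motif was in 18 of the 31 members (58.1%), against 472 of 12149 tested genes with a window (3.89%) and 3.44% of all 32851 windows. A match describes the letters in the window and is no evidence of binding. Of the 18 members with the motif, 14 fell in PC2 against Luc, with a median log2 fold change of -0.54. Of the 13 without it, 12 fell, with a median of -0.45. Over all tested genes, 18.6% fell in that comparison. In Luc against Non surgery, 11 of the 18 rose and 3 fell (median 0.36), and 10 of the 13 rose and 0 fell (median 0.20). There 31.1% of all tested genes rose and 27.7% fell. The second motif, TTCNNNGAA, the palindromic core of the site for STAT dimers, was in 7 of the 31 members (22.6%) and in 8.39% of tested genes with a window. Oas2, Dhx58, Zbp1, Usp18, Mx1, Mx2, Rtp4, Iigp1, Ifi27l2a and Parp14 had no window.

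Libraries held 17835989 to 19004316 counts in genes. The joints carried the RNA of many tissues, and no gene of the 15 cell type marker lists was at 0 in every library of a group. Between Non surgery and Luc the summed level of 9 fast muscle genes fell from between 49730 and 51210 to between 21780 and 22310 CPM (counts scaled to library size), and 9 of 9 fell. The summed level of 8 fibroblast genes was 3780 to 4173 CPM in Non surgery and 15360 to 15630 CPM in Luc, and 8 of 8 rose. The sum of 6 general leukocyte genes was 1982 to 1993 CPM in Non surgery, 1935 to 1986 CPM in Luc and 1636 to 1649 CPM in PC2 libraries. Of these 6, 5 fell and 0 rose in PC2 against Luc (median -0.22). Ptprc, which encodes the leukocyte surface protein CD45, was at 298, 276 and 304 CPM in the Non surgery libraries, 309, 315 and 307 CPM in the Luc libraries and 221, 211 and 212 CPM in the PC2 libraries. It fell by 0.53 ± 0.038 on the log2 scale in PC2 against Luc (edgeR adjusted p = 2.29e-08), and 19 of the 41 members had a fold change below that value while 22 were at or above it. Ptprc had the largest fall of the 6 leukocyte genes. Cd53, Lcp1, Laptm5, Coro1a and Cd52 changed by -0.33, -0.28, -0.16, -0.15 and 0.04, where the median of the 41 members was -0.52. Macrophage genes summed to 931.6 to 949.9 CPM in Luc and 923.5 to 926.5 CPM in PC2, and of these 10 genes 2 rose and 4 fell in PC2 against Luc. Of 8 endothelial genes, 7 rose in Luc against Non surgery (median 0.44) and 7 fell in PC2 against Luc (median -0.26), the directions of most members. Of 7 osteoclast genes, 6 rose and 1 fell in Luc against Non surgery (median 1.27). In PC2 against Luc, 0 of these 7 rose and 4 fell (median -0.29). Over all genes, 31.1% rose and 27.7% fell in Luc against Non surgery, and 16.1% rose and 18.6% fell in PC2 against Luc. Of 9 B cell genes, 7 rose and 1 fell in Luc against Non surgery, with a sum of 998.3 to 1051 CPM in Non surgery and 628.3 to 643 CPM in Luc, and 9 of 9 fell in PC2 against Luc (median -0.36). Of 7 inflammatory monocyte genes, 2 rose and 2 fell in Luc, and 1 rose and 5 fell in PC2 against Luc (median -0.22). Of 11 T and NK cell genes, 1 rose and 5 fell in Luc against Non surgery (median -0.45). In PC2 against Luc, 1 rose and 3 fell (median 0.06). Of 10 neutrophil genes, 3 rose and 7 fell in Luc, and 4 rose and 4 fell in PC2 against Luc. For 10 plasmacytoid dendritic cell genes, Bst2 among them, these counts were 3 and 4, then 2 and 4. For 8 conventional dendritic cell genes they were 5 and 2, then 0 and 3. Mitochondrial genes held 9.054% to 10.88% of counts in Non surgery and 4.998% to 5.798% in the libraries of both virus groups, and TMM factors were 0.922 to 0.933 and 1.033 to 1.042. In whole joints, fewer cells of a type and less RNA per cell cannot be told apart, and the part of these markers and of the mitochondrial share in the results below was not tested.

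The level of the PC2 transgene was not analysed here, so the PC2 label is taken as given.

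Against Non surgery, most interferon-stimulated genes were higher in operated joints with the Luc virus. Of the 41, 28 rose, 4 fell and 9 did not pass an adjusted p of 0.05, where 31.1% of all tested genes rose and 27.7% fell. With a fold change of at least 1.5 asked for as well, 11 rose and 1 fell (15.6% and 12.5% of all genes). The members' median log2 fold change was 0.34 against 0.02 over all genes, with a range from -0.77 for Mx1 to 2.37 for Iigp1. The 4 that fell were Isg15, Mx1, Rsad2 and Trim30a. The Luc libraries were all above the Non surgery libraries for 30 members and all below for 4 (33.1% and 29.8% of all genes). Scaling by library size only, in place of TMM factors, put the median over all genes at 0.185 in place of 0.025. Calls over all genes were then 7754 higher and 3304 lower, against 5431 and 4848 on the TMM scale. Under that scaling 34 members rose and 3 fell, so each fold change of this comparison holds on the TMM scale.

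**Figure D1:**
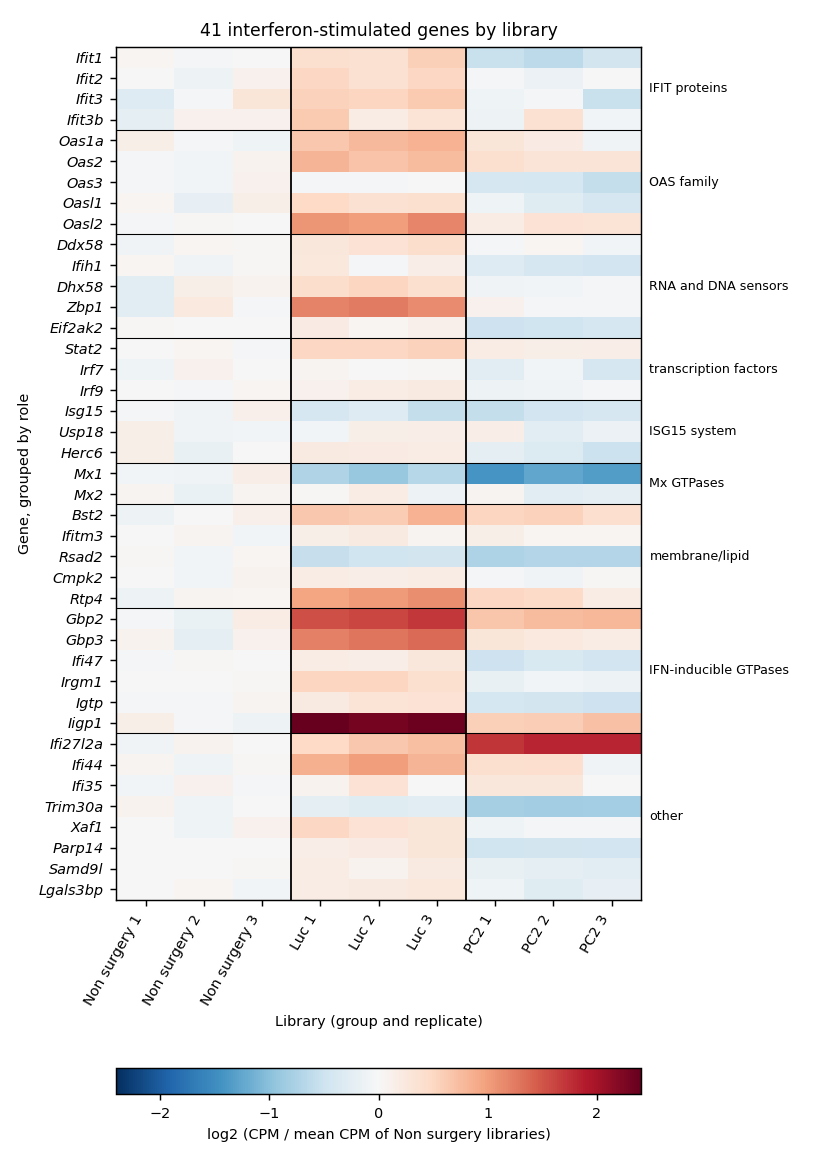
Level of each of the 41 interferon-stimulated genes in each of the 9 libraries, as the log2 ratio of its CPM to the mean CPM of the 3 Non surgery libraries; genes are rows grouped by role, libraries are columns, red is higher and blue lower. Most rows are red in the Luc columns, the Iigp1 and Gbp2 rows most deeply, while Mx1, Rsad2, Isg15 and Trim30a are blue in both virus groups and Ifi27l2a is deepest red in PC2.

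Between the virus groups, the interferon-stimulated genes were lower in PC2 than in Luc libraries almost throughout. Of the 41, 33 fell, 1 rose and 7 did not pass, where 18.6% of all tested genes fell and 16.1% rose. At least 1.5-fold falls were seen in 15 members, with 1 such rise (4.35% and 3.14% of all genes). The members' median log2 fold change was -0.52 against 0.01 over all genes, with a range from -1.75 for Iigp1 to 1.18 for Ifi27l2a, the 1 gene that rose. The PC2 libraries lay entirely below the Luc libraries for 34 members and entirely above for 1 (24.7% and 23.3% of all genes). Ifit3b, Isg15, Usp18, Mx2, Bst2, Ifitm3 and Ifi35 did not pass. Scaling by library size only left these counts at 33 and 1.

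Compared with Non surgery, PC2 libraries held interferon-stimulated genes on both sides. Of the 41, 9 rose, 15 fell and 17 did not pass, where 31.5% of all tested genes rose and 31.2% fell. The 9 that rose were Oas2, Oasl2, Stat2, Bst2, Rtp4, Gbp2, Gbp3, Iigp1 and Ifi27l2a. The 15 that fell were Ifit1, Oas3, Ifih1, Eif2ak2, Irf7, Isg15, Herc6, Mx1, Rsad2, Ifi47, Igtp, Trim30a, Parp14, Samd9l and Lgals3bp. At least 1.5-fold, 3 rose (Gbp2, Iigp1 and Ifi27l2a) and 3 fell (Mx1, Rsad2 and Trim30a), against 16.3% and 13.6% of all genes. The median was -0.07 against 0.01 over all genes, and the range ran from -1.33 for Mx1 to 1.79 for Ifi27l2a. Scaling by library size only turned the members' median to 0.091, with 14 members higher and 11 lower, and put the median over all genes at 0.168 in place of 0.010. The falls of Irf7, Herc6, Samd9l and Lgals3bp did not pass under that scaling, while Oas1a, Ddx58, Ifitm3, Cmpk2 and Ifi35 passed as higher. Calls over all genes were then 7607 higher and 3761 lower, against 5505 and 5447 on the TMM scale. The 3 comparisons share groups, the Luc libraries entering the first 2, so each gene's values are set side by side below and no overlap between comparisons is drawn from them.

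**Figure D2:**
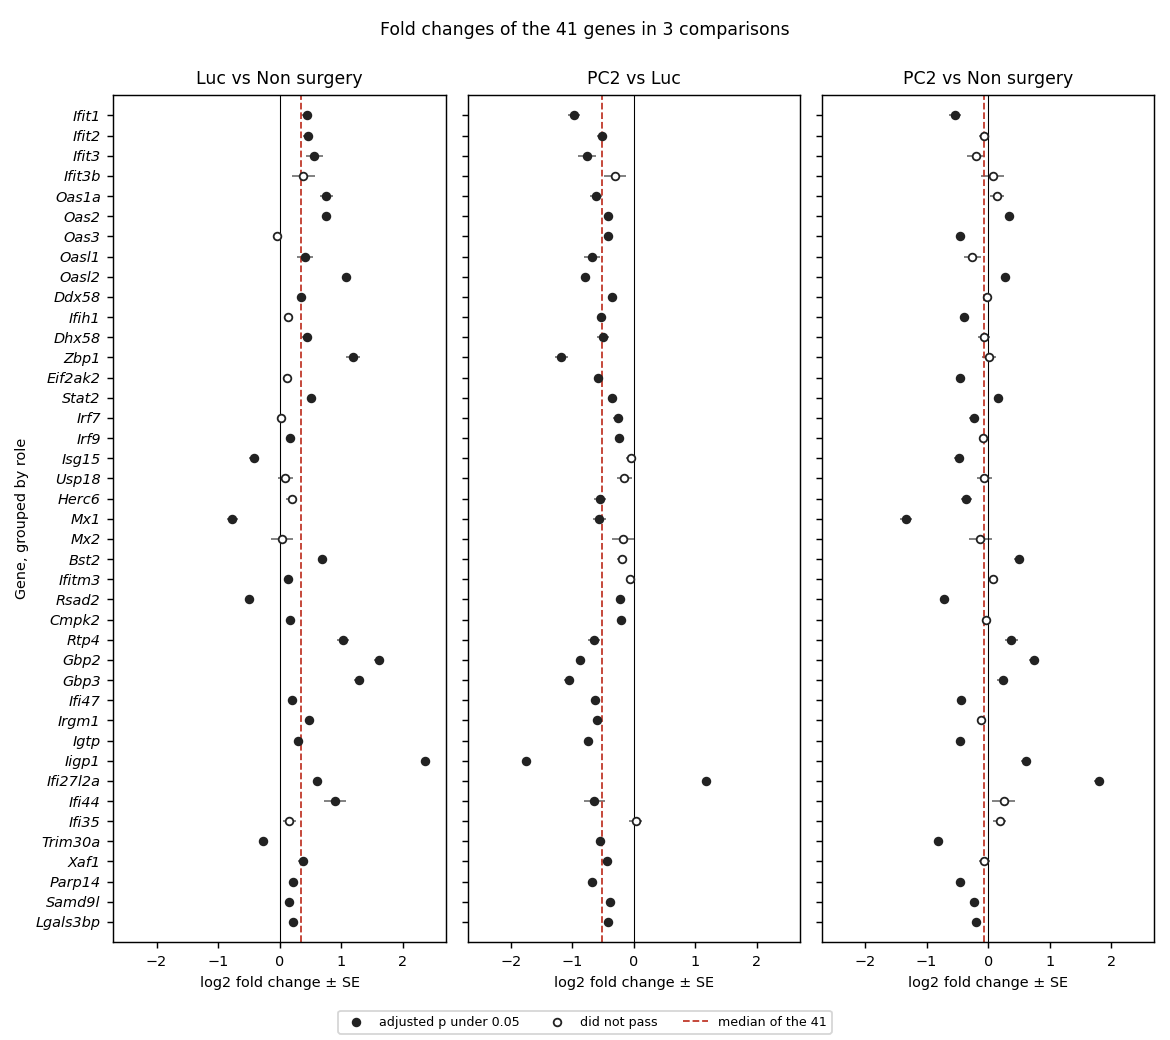
Log2 fold change of each of the 41 genes (points, with the standard error as a bar) in the 3 comparisons, with filled points for an adjusted p under 0.05, open points for genes that did not pass and a dashed line at the median of the 41. The medians are 0.34, -0.52 and -0.07; scaling by library size only turns the last to 0.091 and leaves the sign of the other medians as drawn.

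The interferon-inducible GTPases, a class induced most strongly by interferon-gamma that breaks open vacuoles around pathogens, had the largest medians of the 9 role groups in both comparisons with Luc. All 6 rose in Luc against Non surgery (median 0.88) and all 6 fell at least 1.5-fold in PC2 against Luc (median -0.81). Over all genes, 31.1% rose in the first comparison and 4.35% fell at least 1.5-fold in the second. Iigp1, an immunity-related GTPase that binds vacuole membranes, was at 12.9, 11.4 and 10.7 CPM in the Non surgery libraries, 63.8, 57.4 and 59.3 CPM in the Luc libraries and 17.2, 17.5 and 18.9 CPM in the PC2 libraries. The Luc libraries stood far above both other groups, and no groups overlapped. Iigp1 rose 5.16-fold in Luc against Non surgery, by 2.37 ± 0.071 on the log2 scale (SE, edgeR adjusted p = 3.12e-14). Its fall in PC2 against Luc was 1.75 ± 0.066 (adjusted p = 1.22e-11), and it remained 1.53-fold above Non surgery (adjusted p = 3.55e-06).

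Gbp2 and Gbp3 are guanylate-binding proteins, large GTPases that coat the membranes of intracellular bacteria and parasites. Gbp2 (chromosome 3, 142620602 to 142638008) was at 12.2, 11.2 and 14.3 CPM in the Non surgery libraries, 36.6, 38.3 and 40.5 CPM in the Luc libraries and 19.9, 21.2 and 21.98 CPM in the PC2 libraries. The 3 groups did not overlap, with Luc highest and Non surgery lowest. Gbp2 rose by 1.61 ± 0.081 in Luc against Non surgery (edgeR adjusted p = 2.46e-11) and fell by 0.87 ± 0.075 in PC2 against Luc (adjusted p = 1.92e-07). Gbp3 (chromosome 3, 142560026 to 142573209), its neighbour, was at 12.8, 10.3 and 12.9 CPM in the Non surgery libraries, 27.8, 29.3 and 30.6 CPM in the Luc libraries and 14.6, 14.1 and 13.5 CPM in the PC2 libraries. Its PC2 libraries lay just above the Non surgery libraries and far below those of Luc. The rise of Gbp3 in Luc was 1.29 ± 0.085 (adjusted p = 9.04e-10) and the fall in PC2 against Luc 1.05 ± 0.082 (adjusted p = 5.99e-08). Its difference between PC2 and Non surgery, 0.24 ± 0.090 (adjusted p = 0.0324), did not pass with DESeq2 (adjusted p = 0.101) or with only these groups in the fit (0.0608). It was 0.13 without Non surgery replicate 2 (adjusted p = 0.187) and was also lost without PC2 replicate 1 (0.0842) or PC2 replicate 2 (0.071).

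Ifi47, Irgm1 and Igtp are the remaining GTPases, and their fold changes in Luc were smaller than those of Iigp1, Gbp2 and Gbp3. Irgm1 (chromosome 11, 48861968 to 48871683), a regulatory member that guards host membranes against the others, was at 36.9, 36.9 and 37.9 CPM in the Non surgery libraries, 53.3, 53.5 and 48.5 CPM in the Luc libraries and 32.9, 35.5 and 34.04 CPM in the PC2 libraries. Luc was above both other groups, and all PC2 libraries were below all Non surgery libraries without passing the test (adjusted p = 0.0531). That difference passed under 5 alternatives, among them without Luc replicate 3 (adjusted p = 0.0353) and without PC2 replicate 2 (0.0376). Its fold changes were 0.48 ± 0.051 in Luc against Non surgery (edgeR adjusted p = 5.13e-07) and -0.60 ± 0.051 in PC2 against Luc (adjusted p = 1.78e-07). Igtp (chromosome 11, 58199556 to 58207591) was at 31.4, 31.6 and 33.6 CPM in the Non surgery libraries, 37.3, 40.6 and 41.1 CPM in the Luc libraries and 24.1, 23.8 and 22.8 CPM in the PC2 libraries. Here PC2 was lowest, Luc highest, and no groups overlapped. Igtp rose by 0.30 ± 0.055 in Luc (adjusted p = 1.97e-04) and fell by 0.75 ± 0.057 in PC2 against Luc (adjusted p = 4.21e-08) and by 0.45 ± 0.058 against Non surgery (adjusted p = 3.88e-06). Ifi47 (chromosome 11, 49076587 to 49096974) was at 27.5, 28.9 and 28.4 CPM in the Non surgery libraries, 32.1, 31.7 and 33.95 CPM in the Luc libraries and 20.1, 22.02 and 20.7 CPM in the PC2 libraries. Its libraries had the same order of groups, without overlap. The rise in Luc of 0.20 ± 0.058 (adjusted p = 0.00644) did not pass with DESeq2 (adjusted p = 0.0665), while the falls in PC2 were 0.64 ± 0.059 against Luc (adjusted p = 4.22e-07) and 0.44 ± 0.060 against Non surgery (adjusted p = 8.75e-06).

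**Figure D3:**
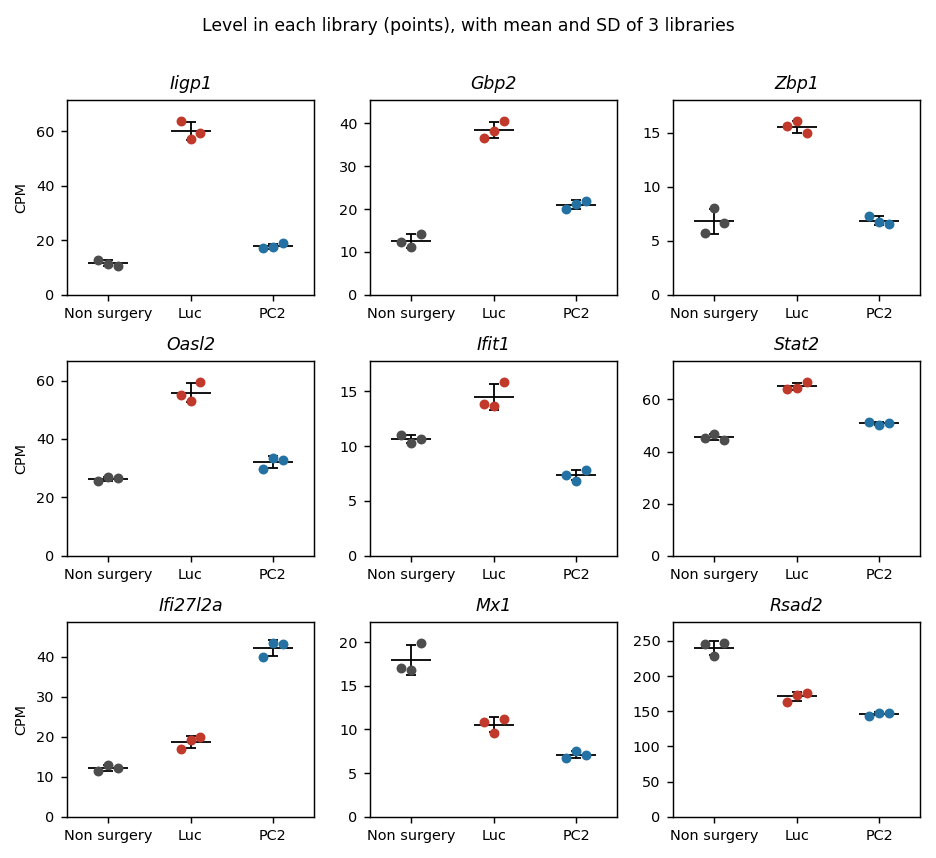
Level in CPM of 9 of the genes in each library (points) by group, with the mean (long mark) and SD (bars) of the 3 libraries; every axis starts at 0 and differs between genes. Iigp1, Gbp2, Zbp1, Oasl2, Ifit1 and Stat2 are highest in Luc, Ifi27l2a is highest in PC2, and Mx1 and Rsad2 are highest in Non surgery.

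The IFIT proteins bind viral RNA that lacks the cap marks of host messages and block its translation. Of 4, 3 rose in Luc against Non surgery (median 0.45), where 31.1% of all genes rose. In PC2 against Luc 3 fell (median -0.64), where 18.6% of all genes fell. Ifit1 (chromosome 19, 34640871 to 34650009) was at 11.03, 10.3 and 10.6 CPM in the Non surgery libraries, 13.8, 13.7 and 15.8 CPM in the Luc libraries and 7.39, 6.85 and 7.82 CPM in the PC2 libraries. The groups did not overlap, and PC2 was the lowest. Ifit1 rose by 0.44 ± 0.089 in Luc (edgeR adjusted p = 4.59e-04), fell by 0.98 ± 0.092 in PC2 against Luc (adjusted p = 5.66e-07) and was 0.54 ± 0.097 lower in PC2 than in Non surgery (adjusted p = 1.51e-04). Ifit3 (chromosome 19, 34583531 to 34588731), a partner of Ifit1 in complexes, was at 6.71, 8.11 and 10.2 CPM in the Non surgery libraries, 12.2, 11.9 and 12.8 CPM in the Luc libraries and 7.75, 8.22 and 5.77 CPM in the PC2 libraries. Luc lay above both other groups, which overlapped each other. Its rise of 0.56 ± 0.14 in Luc (adjusted p = 0.00238) and its fall of 0.76 ± 0.14 in PC2 against Luc (adjusted p = 4.69e-04) both passed. Ifit2 had mean levels of 17.7 ± 1.45, 24.3 ± 1.25 and 16.9 ± 0.818 CPM (SD, n = 3) in Non surgery, Luc and PC2, with fold changes of 0.46 and -0.52 that passed. Ifit3b, a near copy of Ifit3, had fold changes of 0.39 and -0.31 that did not pass (adjusted p = 0.0798 and 0.193), although the first passed when scaled by library size only (adjusted p = 0.0153). Of the 50-base words in its exons, Ifit3 shared 51.2% with other genes, all with Ifit3b, and Ifit3b shared 45%, so the split of reads between these genes is uncertain.

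Enzymes of the OAS family make the linked adenylate chains that activate RNase L on double-stranded RNA. The group here also counts the OAS-like genes Oasl1 and Oasl2. Of 5 members, 4 rose in Luc against Non surgery (median 0.76), where 31.1% of all genes rose. In PC2 against Luc 5 fell (median -0.62), where 18.6% of all genes fell. Oasl2 (chromosome 5, 114896936 to 114912234), an OAS-like protein, was at 25.7, 26.9 and 26.5 CPM in the Non surgery libraries, 55.1, 52.97 and 59.5 CPM in the Luc libraries and 29.7, 33.4 and 32.9 CPM in the PC2 libraries. All Luc libraries were above all others, and PC2 lay above Non surgery without overlap. Oasl2 rose by 1.08 ± 0.059 in Luc (edgeR adjusted p = 6.72e-11) and fell by 0.80 ± 0.057 in PC2 against Luc (adjusted p = 1.98e-08). Oas2 (chromosome 5, 120730333 to 120749853) was at 20.8, 20.2 and 22.5 CPM in the Non surgery libraries, 37.5, 33.8 and 35.9 CPM in the Luc libraries and 27.5, 26.3 and 26.3 CPM in the PC2 libraries. The same order of groups held without overlap. Its changes were 0.76 ± 0.062 in Luc (adjusted p = 1.55e-08), -0.42 ± 0.059 in PC2 against Luc (adjusted p = 4.31e-05) and 0.33 ± 0.063 in PC2 against Non surgery (adjusted p = 2.20e-04).

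Oas1a and Oasl1 are the less abundant of the family's counts. Oas1a (chromosome 5, 120896256 to 120907521) was at 9.41, 8.28 and 7.93 CPM in the Non surgery libraries, 13.4, 14.6 and 15.3 CPM in the Luc libraries and 10.5, 9.74 and 8.03 CPM in the PC2 libraries. Luc was above both other groups, and PC2 and Non surgery overlapped. Oas1a rose by 0.76 ± 0.11 (edgeR adjusted p = 1.27e-05) and fell by 0.62 ± 0.10 in PC2 against Luc (adjusted p = 2.37e-04), but 57.6% of the 50-base words in its exons are shared with other genes, mostly with Oas1g, so its counts are uncertain. Oasl1 (chromosome 5, 114923240 to 114937915), which restrains translation of the Irf7 message in mice, was at 5.16, 4.37 and 5.53 CPM in the Non surgery libraries, 6.96, 6.503 and 6.57 CPM in the Luc libraries and 4.66, 4.11 and 3.78 CPM in the PC2 libraries. Luc again lay above both other groups, which overlapped. Its rise of 0.41 ± 0.13 in Luc (adjusted p = 0.0114) was lost without Non surgery replicate 2 (adjusted p = 0.0655) and with DESeq2 (0.0795), and its fall in PC2 against Luc was 0.68 ± 0.13 (adjusted p = 7.53e-04). Oas3 was at 67.9 ± 4.305 CPM in Non surgery and 66.3 ± 1.14 CPM in Luc (SD, n = 3), which did not pass (adjusted p = 0.596), and at 49.3 ± 2.89 CPM in PC2, a fall of 0.43 ± 0.053 against Luc (adjusted p = 1.18e-05).

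The nucleic acid sensors detect foreign or misplaced RNA and DNA in the cytosol. Of 5, 3 rose in Luc against Non surgery (median 0.34), where 31.1% of all genes rose. In PC2 against Luc all 5 fell (median -0.53), where 18.6% of all genes fell. Zbp1 (chromosome 2, 173206612 to 173218923), which binds nucleic acids in the left-handed Z form and can start necroptosis, was at 5.695, 7.99 and 6.67 CPM in the Non surgery libraries, 15.6, 16.1 and 14.98 CPM in the Luc libraries and 7.33, 6.697 and 6.56 CPM in the PC2 libraries. The Luc libraries stood apart, while PC2 and Non surgery overlapped. Zbp1 rose 2.29-fold in Luc (1.19 ± 0.11, edgeR adjusted p = 5.78e-08) and fell 2.27-fold in PC2 against Luc (-1.18 ± 0.11, adjusted p = 3.01e-07). PC2 and Non surgery differed by 0.01 ± 0.12 (adjusted p = 0.9303).

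The RNA helicases that sense viral RNA had smaller fold changes than Zbp1. Ddx58 encodes RIG-I, and Dhx58 the related regulator LGP2. Ddx58 was at 36.4 ± 1.92, 46.3 ± 2.14 and 36.05 ± 1.38 CPM (SD, n = 3) in Non surgery, Luc and PC2, with changes of 0.34 and -0.36 that both passed. Dhx58 was at 11.6 ± 1.59, 15.7 ± 0.776 and 11.1 ± 0.225 CPM, with changes of 0.44 and -0.50 that both passed. Ifih1, which encodes MDA5, and Eif2ak2, which encodes the RNA-activated kinase PKR, did not pass in Luc against Non surgery. Their log2 fold changes there were 0.14 and 0.12 (adjusted p = 0.116 and 0.0632), and both passed as higher when scaled by library size only (adjusted p = 0.00150 and 1.56e-04) and without Luc replicate 2 (0.0196 and 0.0353). Both fell in PC2, by 0.53 and 0.58 against Luc and by 0.39 and 0.46 against Non surgery.

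The members that carry the signal to DNA changed by less than 1.5-fold in every comparison. Of Stat2, Irf9 and Irf7, 2 rose in Luc against Non surgery (median 0.16), where 31.1% of all genes rose. In PC2 against Luc all 3 fell (median -0.27), none of them 1.5-fold, where 18.6% of all genes fell. Stat2 (chromosome 10, 128270559 to 128292849), the STAT that gives the complex with IRF9 its power to activate transcription, was at 45.2, 46.8 and 44.5 CPM in the Non surgery libraries, 64.03, 64.4 and 66.7 CPM in the Luc libraries and 51.4, 50.1 and 50.99 CPM in the PC2 libraries. Luc was highest and Non surgery lowest, without overlap. Stat2 rose by 0.52 ± 0.043 in Luc (edgeR adjusted p = 1.95e-08) and fell by 0.36 ± 0.042 in PC2 against Luc (adjusted p = 6.97e-06), and PC2 stayed 0.16 ± 0.043 above Non surgery (adjusted p = 0.00438). Irf9 (chromosome 14, 55603571 to 55610030), the DNA-binding part of the complex, was at 61.6, 60.7 and 64.8 CPM in the Non surgery libraries, 66.5, 70.3 and 72.3 CPM in the Luc libraries and 57.2, 58.5 and 60.1 CPM in the PC2 libraries. Luc was the highest group without overlap. Its rise of 0.16 ± 0.045 (adjusted p = 0.00582) and fall of 0.25 ± 0.045 in PC2 against Luc (adjusted p = 4.29e-04) were small but passed. Irf7 (chromosome 7, 141262706 to 141266481), which drives interferon production itself, was at 35.9, 41.4 and 38.3 CPM in the Non surgery libraries, 40.2, 38.4 and 39.3 CPM in the Luc libraries and 32.3, 36.6 and 29.1 CPM in the PC2 libraries. Non surgery and Luc overlapped, and the PC2 libraries were the most scattered. Irf7 differed by 0.03 ± 0.072 between Luc and Non surgery (adjusted p = 0.758; 0.0320 when scaled by library size only). Its falls in PC2, 0.26 ± 0.072 against Luc (adjusted p = 0.00908) and 0.24 ± 0.073 against Non surgery (adjusted p = 0.009697), were lost without PC2 replicate 3 (adjusted p = 0.0617 and 0.0646).

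The ISG15 and Mx genes, which are among the most used markers of an interferon response, did not pass as higher in Luc. With all libraries on the TMM scale none of the 5 rose against Non surgery and 2 fell (31.1% and 27.7% of all genes). Herc6 passed as higher when scaled by library size only (edgeR adjusted p = 0.00210) and without Non surgery replicate 1 (0.271, adjusted p = 0.0242). Isg15, the ubiquitin-like protein that is attached to other proteins, was at 38.2, 36.9 and 43.1 CPM in the Non surgery libraries, 29.7, 31.9 and 26.7 CPM in the Luc libraries and 26.4, 28.6 and 29.9 CPM in the PC2 libraries. Both virus groups were below Non surgery and overlapped each other. Isg15 fell by 0.42 ± 0.074 in Luc (edgeR adjusted p = 1.15e-04), while PC2 and Luc differed by -0.06 ± 0.075 (adjusted p = 0.611). Usp18, the protease that removes ISG15 and restrains the type I receptor, was at 8.25 ± 0.7496, 8.77 ± 0.757 and 7.87 ± 1.16 CPM (SD, n = 3) and passed in no comparison (adjusted p = 0.554, 0.338 and 0.653). Herc6, the ligase for ISG15 in mice, had a log2 fold change of 0.20 in Luc that did not pass (adjusted p = 0.0701) and fell by 0.55 ± 0.091 in PC2 against Luc (adjusted p = 1.99e-04).

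Mx1 (chromosome 16, 97447035 to 97462907) encodes a dynamin-like GTPase against influenza viruses, and C57BL/6 mice are known to carry a defective allele of it. It was at 17.02, 16.9 and 19.9 CPM in the Non surgery libraries, 10.8, 9.57 and 11.2 CPM in the Luc libraries and 6.71, 7.56 and 7.08 CPM in the PC2 libraries. Non surgery was highest and PC2 lowest, without overlap. Mx1 fell by 0.77 ± 0.093 in Luc against Non surgery (edgeR adjusted p = 2.01e-06), by 0.56 ± 0.10 in PC2 against Luc (adjusted p = 4.75e-04) and by 1.33 ± 0.098 in PC2 against Non surgery (adjusted p = 3.74e-09). Mx2, its neighbour, was at 2.75 ± 0.235, 2.82 ± 0.293 and 2.51 ± 0.325 CPM (SD, n = 3) and passed in no comparison (adjusted p = 0.862, 0.504 and 0.559).

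Members that act at membranes or on lipids and nucleotides went in both directions. Of 5, 4 rose and 1 fell in Luc against Non surgery (median 0.18), where 31.1% of all genes rose and 27.7% fell. In PC2 against Luc 3 fell (median -0.21), where 18.6% of all genes fell. Rtp4 (chromosome 16, 23520291 to 23614222), a receptor-transporting protein with antiviral action, was at 8.27, 9.37 and 9.19 CPM in the Non surgery libraries, 17.1, 18.2 and 19.4 CPM in the Luc libraries and 12.6, 12.2 and 10.1 CPM in the PC2 libraries. No groups overlapped, with Luc highest and Non surgery lowest. Rtp4 rose by 1.03 ± 0.097 in Luc (edgeR adjusted p = 9.53e-08) and fell by 0.65 ± 0.091 in PC2 against Luc (adjusted p = 4.29e-05). Bst2 (chromosome 8, 71534255 to 71537456), the tetherin that holds budding viruses on the cell, was at 16.8, 18.3 and 19.9 CPM in the Non surgery libraries, 28.5, 27.9 and 32.5 CPM in the Luc libraries and 26.3, 26.99 and 24.1 CPM in the PC2 libraries. Both virus groups were above Non surgery. It rose by 0.70 ± 0.079 in Luc (adjusted p = 1.04e-06) and by 0.50 ± 0.080 in PC2 (adjusted p = 4.89e-05) against Non surgery, and the PC2 libraries were all below the Luc libraries by -0.20 ± 0.076 without passing (adjusted p = 0.051). Without Luc replicate 2, or without any 1 of the Non surgery replicates, that difference passed (adjusted p from 0.0424 to 0.0486). It also passed in edgeR with no low-count filter (adjusted p = 0.0315) and with only Luc and PC2 in the fit (0.0342).

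Rsad2 (chromosome 12, 26442746 to 26456452) encodes viperin, which makes a chain-ending nucleotide that halts viral RNA synthesis. It was at 245, 229 and 247 CPM in the Non surgery libraries, 164, 174 and 176 CPM in the Luc libraries and 144, 148 and 148 CPM in the PC2 libraries. Non surgery was the highest group and PC2 the lowest, without overlap. Rsad2 fell by 0.49 ± 0.039 in Luc against Non surgery (edgeR adjusted p = 1.06e-08) and by 0.23 ± 0.039 in PC2 against Luc (adjusted p = 3.05e-04). Cmpk2, a nucleotide kinase encoded beside it on the opposite strand, was at 48.3, 46.1 and 51.1 CPM in the Non surgery libraries, 55.1, 53.98 and 55.2 CPM in the Luc libraries and 46.99, 45.6 and 49.2 CPM in the PC2 libraries. Luc was the highest group there, and PC2 overlapped Non surgery. Cmpk2 rose by 0.18 ± 0.049 in Luc (adjusted p = 0.00582) and fell by 0.21 ± 0.049 in PC2 against Luc (adjusted p = 0.00294). Ifitm3, which blocks viral fusion in endosomes, was at 93.9 ± 4.27, 103 ± 5.18 and 99.4 ± 3.56 CPM (SD, n = 3). Its rise of 0.14 ± 0.047 in Luc (adjusted p = 0.0181) was lost without Non surgery replicate 3 (0.102), without Luc replicate 2 (0.117), with DESeq2 (0.0646) and with only these groups in the fit (0.0517).

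Ifi27l2a (chromosome 12, 103442167 to 103443680), a small membrane protein of the ISG12 family, was the member that went up in PC2. It was at 11.5, 12.8 and 12.1 CPM in the Non surgery libraries, 16.9, 19.1 and 19.9 CPM in the Luc libraries and 39.9, 43.4 and 43.1 CPM in the PC2 libraries. The 3 groups did not overlap, and the lowest PC2 library held more than the highest Luc library by a wide margin. Ifi27l2a rose 1.53-fold in Luc against Non surgery (0.62 ± 0.080, edgeR adjusted p = 4.55e-06), 2.26-fold in PC2 against Luc (1.18 ± 0.070, adjusted p = 2.23e-09) and 3.46-fold in PC2 against Non surgery (1.79 ± 0.075, adjusted p = 2.09e-12). Beside it, the sum of 6 adipocyte genes was 369.7 to 390.4 CPM in Non surgery, 373.9 to 410.0 CPM in Luc and 678.9 to 685.0 CPM in PC2. Of these, 3 rose and 2 fell in Luc against Non surgery, and 6 of 6 rose in PC2 against Luc. The sum of 8 chondrocyte genes, 705.5 to 799 CPM in Non surgery, 4409 to 4483 CPM in Luc and 6939 to 7053 CPM in PC2, rose in both steps as Ifi27l2a did, with 8 of 8 genes higher in each. Of 9 fast muscle genes, 9 fell in Luc against Non surgery and 8 rose in PC2 against Luc. Over all genes, 31.1% rose and 27.7% fell in the first comparison, and 16.1% rose in the second. The part of adipocytes and chondrocytes in the level of Ifi27l2a was not tested.

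The 7 remaining members are effectors with other actions. Of them, 5 rose in Luc against Non surgery and 6 fell in PC2 against Luc (31.1% and 18.6% of all genes). Parp14 (chromosome 16, 35832874 to 35871544), which adds ADP-ribose to proteins, was at 67.5, 67.2 and 67.8 CPM in the Non surgery libraries, 75.6, 77.7 and 82.1 CPM in the Luc libraries and 48.5, 49.6 and 49.2 CPM in the PC2 libraries. PC2 was lowest and Luc highest, without overlap. Parp14 rose by 0.22 ± 0.041 in Luc (edgeR adjusted p = 2.58e-04), fell by 0.68 ± 0.042 in PC2 against Luc (adjusted p = 3.97e-09) and fell by 0.46 ± 0.042 against Non surgery (adjusted p = 7.32e-08). Trim30a (chromosome 7, 104409025 to 104465193), which limits Toll-like receptor signalling, was at 84.05, 74.5 and 80.4 CPM in the Non surgery libraries, 67.5, 64.9 and 66.5 CPM in the Luc libraries and 46.1, 44.95 and 45.1 CPM in the PC2 libraries. Non surgery was highest and PC2 lowest, and no groups overlapped. Its fall of 0.26 ± 0.046 in Luc (adjusted p = 1.16e-04) did not pass when scaled by library size only (-0.10, adjusted p = 0.0560), and it fell by 0.55 ± 0.048 in PC2 against Luc (adjusted p = 2.17e-07). Ifi44 (chromosome 3, 151730922 to 151749960) was at 2.398, 2.13 and 2.34 CPM in the Non surgery libraries, 4.16, 4.599 and 4.04 CPM in the Luc libraries and 2.99, 3.04 and 2.15 CPM in the PC2 libraries. Luc was above both other groups, which overlapped. Ifi44 rose by 0.90 ± 0.18 in Luc (adjusted p = 3.66e-04) and fell by 0.64 ± 0.17 in PC2 against Luc (adjusted p = 0.00728), on 37 to 87 counts per library.

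Xaf1, Samd9l and Lgals3bp changed by less. Xaf1 antagonises an inhibitor of cell death, Samd9l slows translation in infected cells, and Lgals3bp is a secreted glycoprotein. Their log2 fold changes in Luc against Non surgery were 0.38, 0.16 and 0.22, and those in PC2 against Luc -0.44, -0.39 and -0.42, all of which passed. With all libraries on the TMM scale Ifi35 passed in no comparison (adjusted p = 0.227, 0.866 and 0.146), while without PC2 replicate 3 it was higher in PC2 than in Non surgery (0.272, adjusted p = 0.0488). Of its exon bases, 16.8% lie opposite an antisense gene, so without a stated strand setting its counts are uncertain. Herc6, Igtp, Rtp4 and Ifitm3 shared 12.5%, 11.8%, 11.6% and 10% of their 50-base words with other genes, and the remaining members 7.13% or less.

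Per length of exon, the members spanned a wide range of levels. As FPKM (here CPM per kilobase of annotated exon), Ifitm3 was highest in every group, at 138 ± 6.303, 152 ± 7.64 and 147 ± 5.25 (SD, n = 3) in Non surgery, Luc and PC2 libraries. Next in Non surgery came Rsad2 at 55.5 ± 2.27 and Isg15 at 52.1 ± 4.3, which did not differ beyond their spread. In Luc the next genes, Ifi27l2a at 40.3 ± 3.39, Rsad2 at 39.5 ± 1.51, Isg15 at 38.9 ± 3.46 and Lgals3bp at 37.95 ± 0.908, also lay within their spread of one another. In PC2 Ifi27l2a stood alone in second place at 90.98 ± 4.22. Iigp1 ranked 35 of 41 in Non surgery libraries, 16 in Luc and 30 in PC2. Ifi44 was lowest in every group, at 0.374 ± 0.0233, 0.696 ± 0.04802 and 0.445 ± 0.0816. The median member was at 5 FPKM in Non surgery, 8.56 FPKM in Luc and 5.36 FPKM in PC2.

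The rest of the pathway was read from lists of ligands, receptors, signal carriers and targets, 163 genes in all, of which 137 were tested. The interferons themselves were barely detected. None of 18 type I genes and none of 3 type II and III genes passed the filter. Ifnb1, the type I interferon of most cell types, had 0 counts in all 9 libraries, and no type I gene had more than 3 counts in a library. Ifng, the type II interferon, had 0, 0 and 0 counts in Non surgery libraries, 1, 1 and 1 in Luc and 2, 1 and 5 in PC2. A count of 0 allows up to 3 counts, or 0.152 to 0.18 CPM in these libraries, and differences between groups were not tested for the ligands. The Ifng counts of Luc and PC2 libraries were all above the 0 of Non surgery, but only by 1 to 5 counts.

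Receptor chains changed little. Of 6 receptor chains, 3 rose and 1 fell in Luc against Non surgery (31.1% and 27.7% of all genes). In PC2 against Luc, 2 rose and 0 fell (16.1% and 18.6% of all genes). Ifnar1, a chain of the type I receptor, was at 65.2 ± 0.776, 79.2 ± 3.93 and 75.2 ± 2.75 CPM (SD, n = 3). It rose by 0.28 ± 0.045 in Luc (edgeR adjusted p = 4.88e-05), and PC2 differed from Luc by -0.07 ± 0.044 (adjusted p = 0.224). Ifnar2, the other chain, passed in no comparison with all libraries on the TMM scale (adjusted p = 0.0631, 0.837 and 0.102). Without Non surgery replicate 2 it passed as higher in Luc (adjusted p = 0.0136) and in PC2 (0.0211) against Non surgery. Of the interferon-gamma receptor, Ifngr1 fell by 0.27 ± 0.036 in Luc and Ifngr2 rose by 0.22 ± 0.040 in Luc and by 0.13 ± 0.039 in PC2 against Luc, the last lost without Luc replicate 2 (adjusted p = 0.0788) or PC2 replicate 1 (0.0679).

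Of 4 kinases and STATs outside the 41, 1 rose and 2 fell in Luc against Non surgery (31.1% and 27.7% of all genes). In PC2 against Luc, 0 rose and 2 fell (16.1% and 18.6% of all genes). Jak2, the kinase of the interferon-gamma receptor, fell by 0.50 ± 0.039 in Luc and by 0.18 ± 0.039 in PC2 against Luc. Jak1, the kinase of all these receptors, fell by 0.32 ± 0.031 and 0.23 ± 0.031. Tyk2, a kinase of the type I receptor, rose by 0.15 ± 0.055 in Luc (edgeR adjusted p = 0.0327), which did not pass with DESeq2 (adjusted p = 0.134), with median-of-ratios factors (0.0647), with only these groups in the fit (0.0628) or without Non surgery replicate 1 (0.106), Non surgery replicate 3 (0.163), Luc replicate 1 (0.0938) or Luc replicate 2 (0.104).

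Of 7 other IRF factors, 3 rose and 0 fell in Luc against Non surgery (31.1% and 27.7% of all genes). In PC2 against Luc, 1 rose and 4 fell (16.1% and 18.6% of all genes). Irf1, a factor that drives interferon-gamma responses, was at 27.6, 31.1 and 29.7 CPM in the Non surgery libraries, 69.3, 71.9 and 66.8 CPM in the Luc libraries and 45.9, 46.02 and 43.8 CPM in the PC2 libraries. Luc was highest and Non surgery lowest, without overlap. Irf1 rose by 1.23 ± 0.053 (edgeR adjusted p = 2.80e-12) and fell by 0.62 ± 0.050 in PC2 against Luc (adjusted p = 9.94e-08). Irf3, the factor that starts interferon production, was at 36.97 ± 2.22 and 37.5 ± 2.84 CPM (SD, n = 3) in Non surgery and Luc and rose by 0.32 ± 0.059 in PC2 against Luc, to 47.01 ± 1.21 CPM (adjusted p = 4.69e-04). Irf4, a factor of lymphocytes and some myeloid cells, rose by 0.95 ± 0.077 in Luc and fell by 0.38 ± 0.073 in PC2 against Luc.

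Among the pathway lists, targets of interferon-gamma and genes of antigen presentation had the highest shares of genes that rose in Luc. Of 19 tested interferon-gamma targets that are no members, 15 rose and 1 fell in Luc against Non surgery (median 0.84; 31.1% and 27.7% of all genes). In PC2 against Luc, 15 fell and 1 rose (median -0.90; 18.6% and 16.1% of all genes). Cxcl9, a chemokine that attracts T cells, was at 5.88 ± 0.547, 27.8 ± 1.59 and 10.1 ± 0.653 CPM (SD, n = 3), with changes of 2.24 ± 0.091 and -1.45 ± 0.082 (edgeR adjusted p = 1.43e-12 and 1.17e-09). Cxcl10, its relative, was at 1.32, 1.67 and 2.64 CPM in the Non surgery libraries, 9.41, 9.04 and 9.54 CPM in the Luc libraries and 3.301, 3.65 and 3.04 CPM in the PC2 libraries. Luc stood apart, and PC2 lay above Non surgery without overlap. Its changes were 2.31 ± 0.18 in Luc (adjusted p = 6.66e-09) and -1.48 ± 0.16 in PC2 against Luc (adjusted p = 1.81e-06). Tgtp1 and Gm4841, GTPases of the same class as Iigp1, rose by 1.74 and 2.10 and fell by 1.48 and 0.92. Gbp10 fell by 1.34 ± 0.20 in Luc, and Serping1, an inhibitor of complement, rose in both comparisons, by 0.999 and 0.36.

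MHC class I proteins display peptides to T cells, and the immunoproteasome cuts them. Of 17 genes of this list, 16 rose and 0 fell in Luc against Non surgery (median 0.66), 11 fell and 0 rose in PC2 against Luc (median -0.34), and 14 rose and 1 fell in PC2 against Non surgery. Over all genes, 31.1% rose and 27.7% fell in the first comparison, 18.6% fell and 16.1% rose in the second, and 31.5% rose and 31.2% fell in the last. H2-K1, a classical class I chain, was at 348 ± 16.3, 663 ± 5.13 and 496 ± 15.4 CPM (SD, n = 3). It rose by 0.93 ± 0.036 in Luc (edgeR adjusted p = 9.51e-13) and fell by 0.42 ± 0.036 in PC2 against Luc (adjusted p = 2.01e-07). Tap1, which carries peptides to these chains, changed by 0.60 ± 0.049 and -0.66 ± 0.048, and PC2 and Non surgery differed by -0.06 ± 0.050 (adjusted p = 0.303). Class I genes are close paralogs, so counts of single H2-Q genes are uncertain.

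Other interferon-stimulated genes outside the 41 numbered 56 tested, of which 32 rose and 9 fell in Luc against Non surgery (31.1% and 27.7% of all genes). In PC2 against Luc, 39 fell and 2 rose (18.6% and 16.1% of all genes). Nlrc5, the activator of class I genes, was at 28.1 ± 2.35, 58.9 ± 1.4 and 31.99 ± 1.63 CPM (SD, n = 3), with changes of 1.07 ± 0.059 and -0.88 ± 0.058. Gm4951 changed by 0.73 ± 0.14 and -1.29 ± 0.14, and Trim12c by -0.79 ± 0.076 in PC2 against Luc. Ifitm1, a relative of Ifitm3, fell by 1.18 ± 0.070 in Luc against Non surgery, and Ifi208 by 1.04 ± 0.29. Apol9a had 3, 0 and 1 counts in Non surgery libraries, 33, 54 and 24 in Luc and 19, 15 and 21 in PC2. It rose in Luc (edgeR adjusted p = 3.23e-06), and its fall in PC2 against Luc, 1.04 ± 0.34 (adjusted p = 0.0269), was -0.66 without Luc replicate 2 (adjusted p = 0.184) and did not pass without PC2 replicate 1 (0.0624), without PC2 replicate 2 (0.103) or with DESeq2 (0.0782).

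Sensors outside the 41 and the regulators that end the response had calls in both directions in Luc. Of 17 genes of nucleic acid sensing, 3 rose and 6 fell in Luc against Non surgery, and 0 rose and 4 fell in PC2 against Luc; the shares that fell are near the 27.7% and 18.6% of all genes. Mavs, the adaptor of RIG-I and MDA5, fell by 0.73 ± 0.054 in Luc (edgeR adjusted p = 4.79e-09). Tlr3, a receptor for double-stranded RNA, rose by 0.83 ± 0.10, while Tlr7 and Tlr8, receptors for single-stranded RNA, fell by 0.57 and 0.44. In PC2 against Luc, Tlr8 fell by 0.72 ± 0.073 and Cgas, the cytosolic DNA sensor, by 0.40 ± 0.094. Of 11 tested negative regulators, 6 rose and 1 fell in Luc against Non surgery (31.1% and 27.7% of all genes). In PC2 against Luc, 0 rose and 3 fell (16.1% and 18.6% of all genes). Socs3, a brake on cytokine receptors, was at 35.5 ± 1.43, 155 ± 1.98 and 85.96 ± 1.67 CPM (SD, n = 3), with changes of 2.13 ± 0.041 and -0.85 ± 0.038. Socs1, the brake on interferon signalling itself, rose by 1.44 ± 0.14 in Luc (adjusted p = 9.00e-08), and PC2 and Luc differed by 0.24 ± 0.11 (adjusted p = 0.111).

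**Figure D4:**
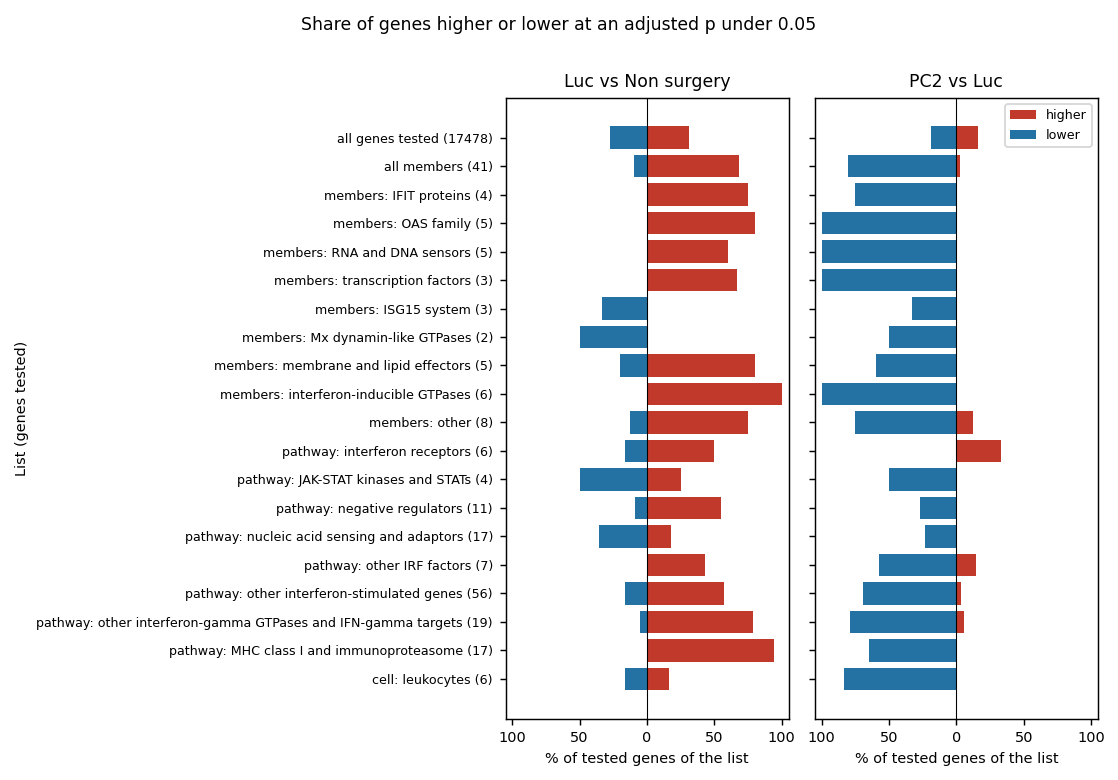
Share of the tested genes of each list that were higher (red, to the right) or lower (blue, to the left) at an adjusted p under 0.05, in Luc against Non surgery and in PC2 against Luc, with the number of genes tested in brackets and all 17478 tested genes in the top row. The interferon-inducible GTPases have all 6 genes higher in Luc and all 6 lower in PC2, while the receptors have 2 of 6 higher and 0 lower in PC2; scaling by library size only moves the shares of the first comparison toward higher.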

How the data were processed

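Whole knee joints were sequenced in 9 libraries, 3 technical repeats of 1 RNA mixture in each of 3 groups, prepared with the NEBNext Ultra kit per the labels' protocols. Each library's deposited table holds unnormalised read counts by Ensembl gene, made by the authors with HISAT2 and HTSeq on mm10 per the submitters' processing notes, which also name DESeq2. The sources used here give no version, annotation release or strand setting. HTSeq's summary lines (reads outside genes 7.29% to 9.25%, ambiguous reads 5.72% to 6.65%) stayed out of library sizes and tests. Symbols and positions came from GENCODE M21 (GRCm38), which held 53274 of 53379 gene IDs.

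All 9 libraries entered 1 edgeR 4.0.16 quasi-likelihood fit (R 4.3.3) on the counts, after filterByExpr (minimum count 10) and TMM scaling, and p-values were adjusted by the Benjamini-Hochberg method over 17478 genes. A gene rose or fell at an adjusted p under 0.05. Standard errors are the log2 fold change over the root of F. CPM uses TMM-scaled library sizes, and groups are given as mean ± SD. Libraries of a group differed by more than counting noise (chi-square per degree of freedom 3.94 to 8.67, genes with at least 20 counts). Replicate numbers did not pair libraries: correlations of same-numbered libraries ran from -0.17 to 0.17. On counts simulated for PC2 against Luc (17209 genes), the fit recovered 74%, 90%, 100% and 100% of 50 genes changed 1.5-fold, 2-fold, 4-fold and 8-fold.

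Alternatives were library size only, median-of-ratios factors, no filter, at least 1 CPM in 3 libraries, 2 groups in the fit, a replicate block, DESeq2 1.42.0 and leaving out each library. Members described with every library's value changed at least 1.5-fold and passed in some comparison, or are Stat2, Irf7 or Irf9; a few others were added after their values were seen (Isg15, Cmpk2). Some genes planned by name are not reported here. Pathway genes named were among the 3 largest changes of their list in at least 1 comparison, or were fixed by name. Not all of the largest are described, Tlr9 and Nlrx1 among them. The members and lists were chosen with earlier results of these data known.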

Additional observations from a re-analysis of the deposited data

How the results depend on the processing

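Of 123 fold changes (41 genes in 3 comparisons), 90 passed, and 80 of these kept their call under all 16 alternatives. Scaling by library size only moved the comparisons with Non surgery: 17 members were higher at least 1.5-fold in Luc against Non surgery, with a median of 0.505. Over all 17478 genes, 7754 were then higher and 3304 lower at any fold, with a median of 0.185. The share of all genes at least 1.5-fold higher was not taken on that scale. In PC2 against Non surgery 14 members were higher and the median was 0.091. There 71 pathway genes were higher and 31 lower, against 47 and 47 of 137 on the TMM scale. Calls over all genes were 7607 higher and 3761 lower, against 5505 and 5447 on the TMM scale. Ddx58 (0.144), Cmpk2 (0.121) and H2-Q7 (0.151) turned positive, and the cause was not tested. Leaving out 1 library gave 27 to 29 members higher and 4 lower in Luc against Non surgery and 32 to 34 lower and 1 higher in PC2 against Luc. The median in Luc against Non surgery ran from 0.279 (without Non surgery replicate 1) to 0.356, in PC2 against Luc from -0.55 to -0.49, and in PC2 against Non surgery from -0.115 (without Non surgery replicate 2) to -0.035. DESeq2 called 25 higher and 4 lower, 1 and 33, and 8 and 15 in the 3 comparisons. Over all genes it called 4512 and 4481 of 21756, 2246 and 2509 of 18176, and 4748 and 4934 of 22353. With the replicate number as a block the counts were 28 and 4, 1 and 33, and 9 and 15, and no member's call changed; the pairing of numbers had no support in the labels. A further limit is that 1 RNA mixture stands for each group, so the spread between mice is unknown. Genes under about 5 CPM, such as Ifi44 and Mx2, have the widest errors. The 1.5-fold recovery of 74% on simulated counts sets no limit for single members. In PC2 against Luc, Cmpk2 passed at a 1.158-fold and Rsad2 at a 1.169-fold fall. Ifit3b, 1 of the 7 members that did not pass there, was 1.238-fold lower. The smallest fold detectable for each member was not tested.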

Other observations

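Several members lie near one another on a chromosome, and such genes did not always have like values. Oas2, Oas3 and Oas1a lie in this order on chromosome 5 (GRCm38, 120730333 to 120907521), with a gap from 120777661 to 120896256 between Oas3 and Oas1a. Their log2 fold changes in Luc against Non surgery were 0.76, -0.03 and 0.76. In PC2 against Luc they were -0.42, -0.43 and -0.62, and all 3 fell. Rsad2 and Cmpk2 are transcribed away from each other on chromosome 12; in Luc against Non surgery Rsad2 fell by 0.49 and Cmpk2 rose by 0.18, and in PC2 against Luc both fell. The difference between these genes was not tested.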
